A study of Arabidopsis thaliana with 80 samples.

Results

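Rosettes of the Arabidopsis thaliana accession Bon were compared with rosettes of Col-0 at the first of the sampling rounds, labelled ex1. The comparison holds 11 of the 80 libraries of the series, chosen by their labels: 3 of Bon in the morning, 3 of Bon in the evening, 3 of Col-0 in the morning and 2 of Col-0 in the evening. Bon is a natural accession from southern Spain, and Col-0 is the laboratory line whose genome is the reference sequence of the species. The question the contrast addresses is how a local accession and the reference line differ in gene expression when they grow side by side outdoors. Both were sown in pots in 1 botanical garden in the province of Cádiz, with no transgene and no treatment, and each library is a pool of 5 rosettes without roots. Morning pools were taken between 10:00 and 10:30, and the pools called evening between 15:30 and 16:00. The labels name vegetative, inductive and reproductive stages but do not tie a stage to ex1, and they number the rounds under the heading of extraction, so stage, date and extraction cannot be told apart between rounds. The replicates are pools of 1 garden, and a p-value here measures the spread between such pools.

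Natural accessions of this species differ from Col-0 at loci known for large effects on life history and defence. Many winter annual accessions carry active FRI and FLC, and FLC, a MADS-box repressor of flowering, blocks the transition until a long cold period silences it, whereas Col-0 carries a loss-of-function FRI allele and flowers without cold. Glucosinolates, the sulfur-containing defence compounds of the cabbage family, differ between accessions in side chain and in breakdown product, and clusters of immune receptor genes differ in which members are present at all. A transcript counted on the Col-0 reference can read low in another accession because the gene is expressed less, because it is deleted, or because its sequence differs too much for reads to align, and these values cannot tell the 3 apart.

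Values are given as deposited; they are log2 values to which 1 was added before the logarithm, so that 0 means no signal and a difference of 1 means 2-fold well above the offset. A difference is always Bon minus Col-0, with equal weight to the morning and the evening difference. All libraries of the series entered 1 limma fit, a linear model with moderated variances over all genes, and p-values were adjusted by the Benjamini-Hochberg method over the 20880 genes that reached a value of 1 in at least 3 libraries. A gene is called higher or lower in Bon where the adjusted p was under 0.05.

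Transcripts that should be silent in one accession were used to check the 11 libraries. From the rounds ex2 and ex3, which the comparison does not use, 25 genes were on in Col-0 and off in Bon. None of them passed a value of 1 in the other 5 Bon libraries of ex1, but 21 did so in Bon evening 3. In that library the 11 genes that are on in Col-0 and in no other accession all had signal, at a median of 18.5% of their linear level in the Col-0 evening libraries, whereas the genes on only in Moj or only in Vel, the other Spanish accessions, were at a median of 0%. The 34 genes on in Bon and off in Col-0 were at a median of 87.9% of the Bon level there. Many results that move with Bon evening 3 are therefore also given without it, and all other values include it. Of 6 genes on in Bon, Moj and Vel and off in Col-0, 3 were above 1 in Col-0 evening 1, at a median of 2.94% of the Bon level. In that library genes on only in Vel were at a median of 2.12% of the Vel level, with 1 of 7 above 1. Genes on only in Bon or only in Moj were at a median of 0% there. Col-0 morning 3 correlated at 0.958 and 0.963 with the other Col-0 morning libraries, where the lowest correlation within any of the other groups was 0.978. Between 20637 and 21918 genes were above 0 per library, and no counts came with the values, so sequencing depth is unknown. The tissue matched its label: the 20 nuclear photosynthesis genes summed to 202 to 216 per library, the 7 flower organ genes to 0 to 1.45, and 4 of 8 root markers did not reach the minimum level.

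**Figure D1:**
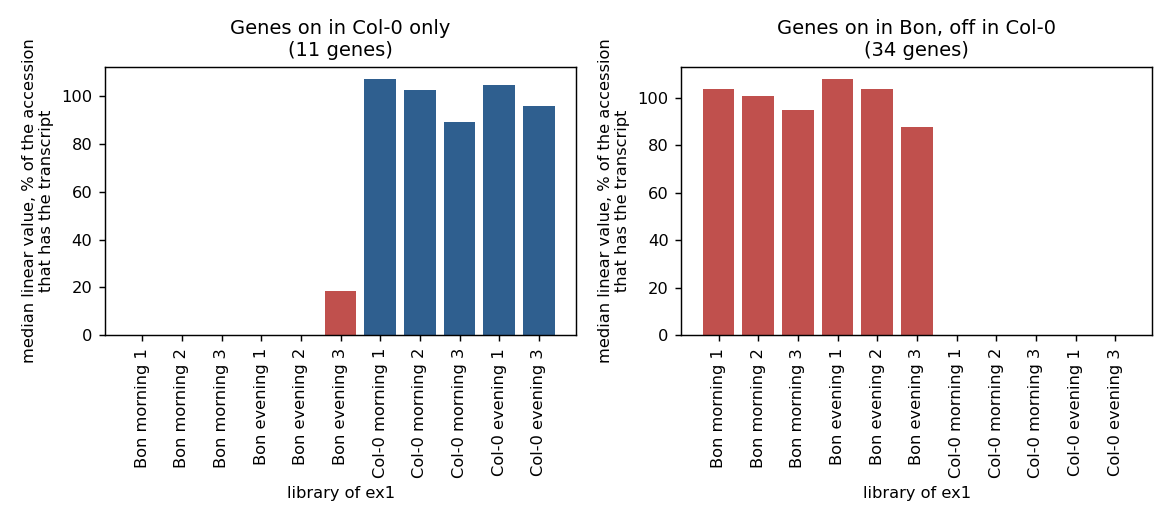
Bars show, for each of the 11 libraries, the median linear level of marker transcripts as a percentage of the level in the accession that expresses them; the left panel holds 11 genes on in Col-0 only and the right panel 34 genes on in Bon and off in Col-0. Bon evening 3 reaches 18.5% for the Col-0 transcripts, where every other Bon library is near 0.

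Over the whole transcriptome, 8805 of 20880 genes were called, which is 42.2%. Bon was higher for 4512 genes (21.6%) and lower for 4293 (20.6%), and the median difference over all genes was 0.00. Most called differences were small, with a median size of 0.526, and 1400 genes (6.70%) were called with at least a 2-fold difference, 603 of them higher and 797 lower in Bon. Without Bon evening 3 the count was 8788, with 653 higher and 862 lower by 2-fold. In 4571 genes (21.9%) the Bon and Col-0 libraries did not overlap within the morning nor within the evening and differed in the same direction. Morning and evening differences had the same sign in 8589 of the 8805 called genes. Genes were called on the mean of these 2 differences, which favours equal signs, and 3208 of them were called at both times. The gene lists described below hold 397 genes in 26 lists, of which 369 reached the minimum level and were tested, and counts refer to the tested members. Because these are whole rosettes, a lower value can come from fewer cells of a type or from less RNA per cell, which cannot be told apart.

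**Figure D2:**
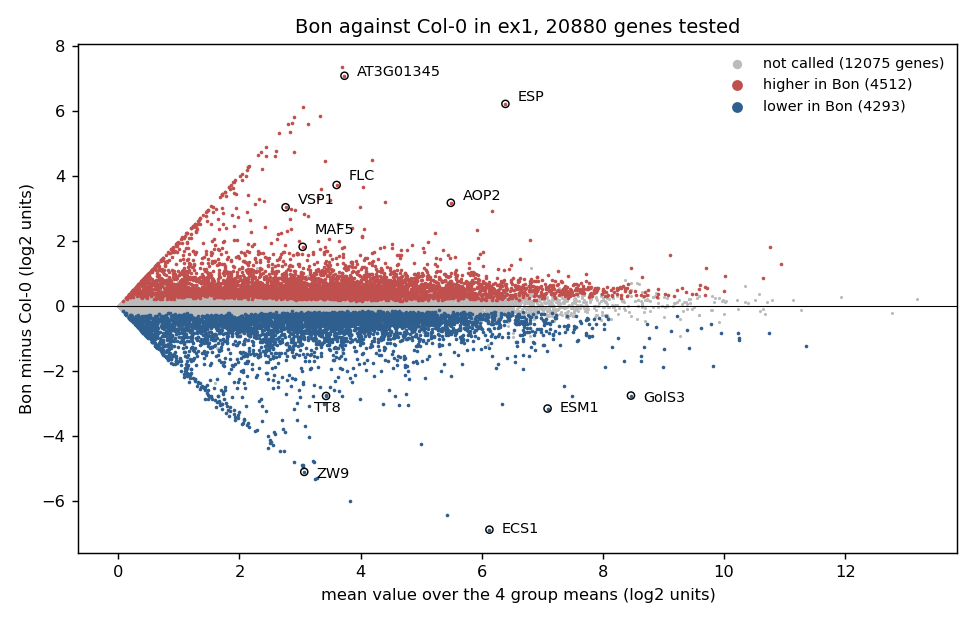
Each point is 1 of 20880 genes, with the mean deposited value over the 4 groups on the x axis and the Bon minus Col-0 difference on the y axis, both on the log2 scale; red marks the 4512 genes called higher in Bon and blue the 4293 called lower. The cloud is symmetric about 0, and the labelled genes stand far outside it on both sides.

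Outside pseudogenes, transposon genes and organelle genes, and among genes whose libraries did not overlap at either time of day, AT3G01345 stood highest in Bon. It encodes an uncharacterized protein. It read 7.70, 7.55 and 7.46 in the Bon mornings and from 6.81 to 7.11 in the Bon evenings, and between 0.08 and 0.28 in the 5 Col-0 libraries. The groups lay far apart, with a difference of 7.07 (SE 0.0890, adjusted p = 4.98e-55), and it was not shared with Moj or Vel, whose differences from the same Col-0 libraries were -0.05 and -0.15. Of the other 9 genes with the largest positive differences, AT4G29200, annotated as related to beta-galactosidases, AT2G05642, annotated with an OB-fold of nucleic acid binding proteins, AT2G37435, of the cystatin superfamily, and OFP9, a transcription repressor of the ovate family, were listed at 0 in every Col-0 library, so no fold is given. Their Bon libraries read 5.82 to 6.32, 5.46 to 6.41, 5.01 to 5.54 and 4.14 to 4.83 in that order. AT2G15555, a noncoding RNA gene, differed by 5.83, AT5G45095 by 5.61, AT5G15360 by 4.75 and AT5G41660 by 4.60, and the last 3 encode proteins without a described function. The remaining gene of this group, ESP, is described with the glucosinolate genes.

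ECS1 had the largest negative difference among genes chosen in the same way. It stood at 9.91, 9.95 and 10.09 in the Col-0 mornings and 9.07 and 9.21 in the Col-0 evenings, against 1.66, 1.62 and 2.26 in the Bon mornings and 2.17, 1.49 and 6.95 in the Bon evenings. The groups did not overlap, and the value of 6.95 belongs to Bon evening 3. The difference was -6.87 (SE 0.510, adjusted p = 2.11e-17) with that library and -7.72 without it. ZW9, a gene of the TRAF-like family, differed by -5.09, with Bon at 0 to 0.26 except for 2.69 in Bon evening 3, and Col-0 at 5.26 to 5.95. The neighbours AT3G28290 and AT3G28300 encode near-identical membrane proteins, so the split of reads between them is uncertain. Both were listed at 0 in 5 Bon libraries and at 4.99 and 4.94 in Bon evening 3, with Col-0 between 5.10 and 6.22. The other genes among the 10 most negative were AT1G24996 (-5.31), AT1G25175 (-5.28), AT5G49440 (-4.96), AT5G28919 (-4.89), AT5G49640 (-4.88) and AT1G25098 (-4.78). In each of these 6 genes the highest Bon value was that of Bon evening 3, between 2.54 and 3.32, and the other Bon libraries were at or below 0.595. Without Bon evening 3 the 6 differed by -5.81, -5.84, -5.47, -5.42, -5.33 and -5.18 in the order given. ZW9, AT3G28290 and AT3G28300 then differed by -5.53, -5.63 and -5.60. The choice and order of the 10 genes come from the fit with all libraries.

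A stricter class of differences was the presence of a transcript in one accession and its absence in the other, taken as every library of one accession at 3 or more and every library of the other at 0.5 or less. With all 11 libraries, 30 genes (0.144%) were on in Bon and off in Col-0, and 0 genes (0.00%) were on in Col-0 and off in Bon. Without Bon evening 3 the counts were 31 (0.148%) and 32 (0.153%), and in that library 29 of the 32 Col-0 transcripts stood above 1, at a median of 1.88 and up to 4.99. Of the 31 genes on in Bon, 17 are annotated as protein-coding and 13 as pseudogenes. Of the 32 genes on in Col-0, 20 are protein-coding and 7 are pseudogenes. Among all 20880 genes tested, 19898 are protein-coding and 465 are pseudogenes. Neighbouring genes appeared in both lists: AT3G29736, AT3G29738 and AT3G29739 were on in Bon, and the pairs AT1G25097 and AT1G25098, AT2G13970 and AT2G13975, and AT3G28290 and AT3G28300 were on in Col-0. The same split between Bon and Col-0 was seen in all libraries of ex2 and ex3 for 21 of the 31 and 16 of the 32. In Moj and Vel, 21 and 22 of the 32 Col-0 transcripts were off as in Bon, and 9 and 8 of the 31 Bon transcripts were on as in Bon.

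Among regulators of flowering, the repressor FLC separated the accessions most. FLC read 5.62, 5.38 and 5.38 in the Bon mornings and 5.57, 5.42 and 5.42 in the Bon evenings, against 1.30, 1.62 and 1.37 in the Col-0 mornings and 2.29 and 1.82 in the Col-0 evenings. The lowest Bon library was more than 3 log2 units above the highest Col-0 library. The difference was 3.72 (SE 0.121, adjusted p = 4.96e-34). FRI, the activator of FLC, was at 2.05 to 2.49 in Bon and 1.90 to 2.29 in Col-0, groups that overlapped, and its difference of 0.21 was not called (adjusted p = 0.0767), although without Bon evening 3 it was 0.25 with adjusted p = 0.0363. Transcript level does not show whether a FRI protein is functional.

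The relatives of FLC did not follow it as a group. MAF5, a MADS-box repressor of the same clade, was at 3.80 to 4.14 in Bon and 1.86 to 2.36 in Col-0, a difference of 1.82 (SE 0.216, adjusted p = 3.68e-10). MAF1, also known as FLM and a repressor that acts with ambient temperature, stood at 3.74 to 4.13 in Bon and 4.93 to 5.43 in Col-0. Its groups did not overlap, and the difference was -1.17 (adjusted p = 9.96e-10). Of the 15 floral repressors tested, 3 were higher in Bon (FLC, MAF5 and TOE2), 6 were lower (MAF1, MAF2, MAF3, SVP, TOE1 and TOE3) and 6 were not called, with a median difference of -0.34. Among all genes tested 21.6% were higher and 20.6% lower, the shares against which the counts of each list are to be read. The lower count was 5 without Bon evening 3, where MAF3 was no longer called, and 3 without Col-0 morning 3, where MAF3, TOE1 and TOE3 were not.

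VIN3, a PHD finger protein that cold induces and that is needed to silence FLC, was lower in Bon at both times. Bon read 0.55, 0.42 and 0.40 in the mornings and 2.61, 2.42 and 2.90 in the evenings, and Col-0 1.80, 1.43 and 2.23 in the mornings and 4.07 and 4.47 in the evenings. Within each time of day every Bon library was below every Col-0 library, and in both accessions the evening values were the higher ones. The difference was -1.50 (SE 0.170, adjusted p = 9.3e-11). VRN2, a Polycomb subunit that maintains FLC silencing, differed by -0.50 (adjusted p = 2.19e-06). Of the 18 regulators of FLC tested, 3 were higher, 4 lower and 11 not called, with a median of 0.00. Only 1 was higher, VEL1, without Col-0 morning 3, and 1 in the 11 libraries alone.

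Most genes that promote flowering were not called in this round, which also holds for 12075 of all 20880 genes tested. FT, the mobile flowering signal, was listed at 0 in all 6 Bon libraries and in 4 of the 5 Col-0 libraries, with 0.20 in the remaining one. SOC1, listed in the reference as AGL20 and a target that FLC represses, was at 4.63 to 5.45 in Bon and 4.18 to 5.37 in Col-0, and its difference of 0.27 was not called (adjusted p = 0.197). AGL19, a MADS-box promoter of flowering that responds to cold, was lower in Bon, at 0.89 to 2.56 against 2.59 to 3.96, by a difference of -1.91 (adjusted p = 6.1e-13). In all, 1 of 14 promoters was higher (SPL9), 4 were lower (AGL19, FUL, SPL15 and FD) and 9 were not called, with a median of -0.23. In the 11 libraries alone 2 were lower, and FD had an adjusted p of 0.119. The call of FUL ended without Bon evening 3 or without Col-0 morning 3.

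The gene with the largest difference in any of the 26 lists acts in the breakdown of glucosinolates. ESP, the epithiospecifier protein, directs glucosinolate breakdown to nitriles and epithionitriles in place of isothiocyanates. Its transcript was at 9.16, 9.64 and 9.82 in the Bon mornings and 9.32, 9.35 and 9.68 in the Bon evenings, and in Col-0 at 2.75, 3.33 and 3.46 in the mornings and 3.76 and 3.03 in the evenings. No Bon library came near any Col-0 library, and the difference was 6.21 (SE 0.204, adjusted p = 7.41e-34). ESM1, a protein that favours isothiocyanates, went the other way. Bon stood at 5.42, 5.62 and 5.59 in the mornings and 4.88, 5.03 and 6.53 in the evenings, and Col-0 between 8.34 and 8.97, a difference of -3.15 (SE 0.560, adjusted p = 6.22e-06), or -3.41 without Bon evening 3, which is the highest of the Bon libraries. Of the 9 myrosinase and specifier genes tested, these 2 were called and 7 were not, among them the myrosinases TGG1 (-0.27) and TGG2 (-0.32).

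AOP2 makes alkenyl glucosinolates, and the Col-0 copy is not functional; the reference annotates it as a transcribed pseudogene. It read 6.92, 7.22 and 7.63 in the Bon mornings and 6.93, 6.78 and 6.97 in the Bon evenings, against 3.02, 3.33 and 3.70 in the Col-0 mornings and 3.88 and 5.03 in the Col-0 evenings. The accessions did not overlap, with a difference of 3.17 (SE 0.252, adjusted p = 2.91e-16). AOP3, its neighbour that makes hydroxyalkyl glucosinolates, was listed at 0 in all 11 libraries. MAM3, listed as IMS2, which elongates the methionine side chain, was at 4.83 to 5.88 in Bon and 3.03 to 4.56 in Col-0 (difference 1.58, adjusted p = 1.91e-07), whereas the neighbouring MAM1, a close paralogue for which reads can be assigned wrongly, differed by -0.14 (adjusted p = 0.705). FMO GS-OX4, which oxidises the side chain sulfur, was at 5.12 to 7.67 in Bon and 6.17 to 8.86 in Col-0, with Bon below Col-0 within each time of day (difference -1.21, adjusted p = 1.62e-07). AT2G25450, the dioxygenase that hydroxylates an alkenyl glucosinolate, was at 8.48 to 9.03 in Bon and 7.68 to 8.47 in Col-0, and its difference of 0.70 was not called (SE 0.340, adjusted p = 0.0908). Its libraries did not overlap within either time of day, and in the 11 libraries alone the adjusted p was 0.0011. The 23 aliphatic glucosinolate genes tested counted 11 higher, 3 lower and 9 not called, with a median of 0.47. Higher members spanned the pathway, from chain elongation (IPMI2, 0.62) and core synthesis (SOT18, 0.73) to side chain oxidation (FMO GS-OX1, 0.93) and the regulators MYB29 (0.53) and MYB76 (0.46). The indolic branch had 2 of 15 higher, 3 lower and a median of -0.18, with 3 higher and 1 lower without Col-0 morning 3.

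Immune receptor genes were more often lower than higher in Bon. Of 31 nucleotide-binding leucine-rich repeat receptors and RPW8 homologues tested, 17 were lower, 3 were higher and 11 were not called, with a median of -0.56, against 20.6% lower and 21.6% higher among all genes. The counts were the same without Bon evening 3. HR4, a homologue of the powdery mildew resistance gene RPW8, was at 0, 0.62 and 1.63 in the Bon mornings and 0.37, 0 and 1.18 in the Bon evenings, and in Col-0 at 5.81, 4.27 and 4.78 in the mornings and 4.21 and 4.09 in the evenings. The groups were far apart, with a difference of -3.92 (SE 0.249, adjusted p = 2.83e-20). The receptor gene AT1G58602, which carries the RPP7 resistance to downy mildew, differed by -4.03 (Bon 0.58 to 2.57 with its highest value in Bon evening 3, Col-0 4.98 to 5.74, adjusted p = 1.42e-29). LAZ5, RPS6 and RPP1 differed by -3.59, -2.33 and -2.33, and none of the 3 overlapped between accessions.

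Receptors of the RPP5 cluster, which form a tandem array of similar sequences, were lower together. RPP5 read 3.19, 2.95 and 3.02 in the Bon mornings and 3.96, 4.03 and 4.37 in the Bon evenings, against 4.97, 4.86 and 5.46 and 5.94 and 5.84 in Col-0. The difference was -1.91, and the neighbours RPP4 and SNC1 differed by -1.26 and -1.22. Bon was below Col-0 within each time of day for all 3. The receptors higher in Bon were AT4G12010, known as DSC1 (1.04), AT1G17600, known as SOC3 (0.76), and its neighbour AT1G17610, known as CHS1 (0.56). For receptors as for any gene, expression and alignment to the reference cannot be told apart here.

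The salicylic acid pathway, the main hormone route against biotrophic pathogens, was close to balance in ex1, with 2 of 23 genes higher, 5 lower and 16 not called (median -0.19). Without Col-0 morning 3, 3 were lower. CBP60G, a transcription factor that drives salicylic acid synthesis, was at 2.58, 2.49 and 3.25 in the Bon mornings and 1.37, 1.85 and 1.43 in the evenings, and in Col-0 at 4.37, 3.79 and 5.01 and 2.24 and 2.90. Bon was the lower one at each time, with a difference of -1.32 (adjusted p = 1.15e-06). PAD4, a lipase-like signalling partner of EDS1, differed by -0.69 (adjusted p = 0.000388). PR1, the usual marker of the response, was called higher in Bon (2.23, adjusted p = 0.0007), but its Col-0 libraries ranged from 0.19 to 4.09 and overlapped with the 2.48 to 5.48 of Bon. ACD6, a membrane protein known for differences between accessions in defence and growth, was not called (-0.23, adjusted p = 0.687).

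Of 18 jasmonate genes, 3 were higher, 4 lower and 11 not called, counts that changed with single libraries. Without Bon evening 3 there were 2 higher and 6 lower, without Col-0 morning 3 there were 3 higher and 1 lower, and in the 11 libraries alone 1 higher and 2 lower. VSP1, a storage protein that jasmonate induces, was at 2.68, 4.73 and 4.79 in the Bon mornings and 3.24, 3.82 and 6.41 in the Bon evenings and between 0.50 and 1.58 in Col-0, without overlap (difference 3.03, SE 0.659, adjusted p = 0.000154). Its highest value belongs to Bon evening 3, and without that library the difference was 2.55. The synthesis enzyme AOS was higher (1.08), while LOX3 (-1.02), LOX4 (-0.86) and the defensin PDF1.2 (-2.58) were lower. Without Col-0 morning 3 the adjusted p was 0.0631 for LOX4 and 0.0821 for PDF1.2, and in the 11 libraries alone it was 0.0541 for AOS.

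Cold response genes were lower in Bon. Of 20 genes, 18 were lower in Bon, 0 were higher and 2 were not called (ZAT12 and ICE1), against 20.6% lower among all genes, and the median difference was -1.02. The count of lower genes was 18 without Bon evening 3, 14 without Col-0 morning 3 and 13 in a fit to the 11 libraries alone. GolS3, a galactinol synthase of the cold-induced raffinose pathway, read 5.21, 5.67 and 5.95 in the Bon mornings and 8.35, 8.31 and 9.05 in the Bon evenings, against 8.80, 8.86 and 9.88 in the Col-0 mornings and 10.35 and 10.65 in the Col-0 evenings. Within each time of day Bon was below Col-0, by -3.57 in the morning and -1.93 in the evening, and the change between times was not called (adjusted p = 0.170). The difference was -2.75 (SE 0.330, adjusted p = 5.3e-10).

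Other genes with protective products were lower too. LTI78, known as RD29A, was at 7.51, 7.11 and 7.61 in the Bon mornings and 10.21, 10.12 and 10.81 in the Bon evenings, and at 9.76, 9.41 and 10.21 and 11.79 and 11.59 in Col-0 (difference -1.85). COR15A, a chloroplast protein that protects membranes on freezing, was at 9.80 to 11.79 in Bon and 11.79 to 12.07 in Col-0, ranges that met at 11.79 (difference -1.23), near the upper end of the normalised scale. KIN1 differed by -1.86, LTI30 by -1.68 and COR413IM1, a chloroplast membrane protein, by -1.88. The transcription factors that control them were lower as well: CBF1 differed by -1.33, CBF2 by -0.86 and RAP2.1, which CBF factors induce, by -1.38, and CBF3 was called lower too. In the mornings CBF1 was at 4.24 to 5.28 in Bon and 5.57 to 7.03 in Col-0, and in the evenings at 0.71 to 1.15 in Bon and at 1.64 and 2.36 in Col-0. The list's median difference was -1.49 in the morning and -0.66 in the evening, and for 2 of the 20 genes, CBF3 and COR15B, the change between times was called. Without Bon evening 3 neither was (adjusted p = 0.122 and 0.0911). Col-0 morning 3 had the highest value of the Col-0 mornings for each of GolS3, LTI78, COR15A, KIN1 and CBF1, the library whose removal left 14 genes lower.

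CBF factors bind the core CCGAC, and the 250 bases before the gene start were searched for it on both strands in the Col-0 reference (RefSeq, TAIR10.1). It was present in 6 of 20 cold response genes (30.0%), in 4 of 17 drought genes (23.5%), in 2 of 26 flavonoid genes (7.69%) and in 3285 of 27443 nuclear protein-coding genes (12.0%). The promoters of GolS3, LTI78 and COR15A, whose library values are given above, each hold more than 1 match and are shown here, and capitals mark CCGAC or its reverse complement GTCGG. They are the Col-0 sequences, and those of Bon were not analysed here. GolS3 lies at chr1:3019389-3019638 on the plus strand with 2 matches, LTI78 at chr5:21240467-21240716 on the plus strand with 3, and COR15A at chr2:17712331-17712580 on the minus strand with 2.
GolS3: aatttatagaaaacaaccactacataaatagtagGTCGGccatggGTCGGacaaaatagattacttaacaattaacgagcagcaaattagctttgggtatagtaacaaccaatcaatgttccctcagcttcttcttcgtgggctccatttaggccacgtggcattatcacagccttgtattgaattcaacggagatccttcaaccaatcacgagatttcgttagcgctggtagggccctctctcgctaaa
LTI78: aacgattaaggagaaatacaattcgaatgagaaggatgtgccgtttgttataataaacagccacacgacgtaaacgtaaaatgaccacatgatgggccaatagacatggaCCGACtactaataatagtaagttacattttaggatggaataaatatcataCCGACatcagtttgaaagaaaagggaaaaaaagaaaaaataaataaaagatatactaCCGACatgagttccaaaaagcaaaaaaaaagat
COR15A: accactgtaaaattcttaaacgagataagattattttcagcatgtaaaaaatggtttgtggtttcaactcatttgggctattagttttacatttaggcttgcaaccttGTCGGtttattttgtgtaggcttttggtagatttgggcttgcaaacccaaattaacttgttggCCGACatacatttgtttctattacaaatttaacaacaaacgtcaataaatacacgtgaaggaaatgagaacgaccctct
A match describes letters in a window and does not show binding.

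Anthocyanin and flavonoid genes were lower in Bon as well, with 19 of 26 lower, 2 higher and 5 not called, and a median of -0.78, against 20.6% lower and 21.6% higher among all genes. Several late enzymes had large differences. LDOX, which makes the coloured anthocyanidins, was at 2.24, 3.01 and 3.65 in the Bon mornings and 3.47, 3.71 and 4.37 in the Bon evenings, and at 5.25, 5.21 and 7.05 in the Col-0 mornings and 5.42 and 7.30 in the Col-0 evenings. All Bon values were below all Col-0 values, by a difference of -2.69 (SE 0.350, adjusted p = 4.96e-09). DFR, which acts just before it, differed by -3.05 and the anthocyanin acyltransferase AT5MAT by -2.49. The hydroxylase TT7, an earlier step, differed by -3.00. TT8, the bHLH partner of the MYB activators, was at 1.47, 1.56 and 1.83 and 2.48, 1.95 and 3.01 in Bon against 3.60, 3.69 and 5.08 and 5.04 and 5.96 in Col-0, a difference of -2.76 (SE 0.294, adjusted p = 1.26e-11).

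Other early enzymes, which flavonols also need, differed less than TT7, with TT4, the chalcone synthase, at -0.77, F3H at -0.52 and TT5, the chalcone isomerase, at -0.49. FLS1, the flavonol synthase, was not called (-0.22). The MYB activators PAP1 (-1.15) and MYB90 (-1.98) were lower, and the bHLH genes EGL3 (0.79) and GL3, which also act in trichomes, were the 2 higher members. For MYB90 the Col-0 mornings read 0.55, 0.78 and 4.58, with the last in Col-0 morning 3, against 0 to 0.47 in the Bon mornings, and the evenings read 5.45 and 6.70 against 3.50 to 3.96. Without Col-0 morning 3, 18 flavonoid genes were lower and F3H was not called.

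**Figure D3:**
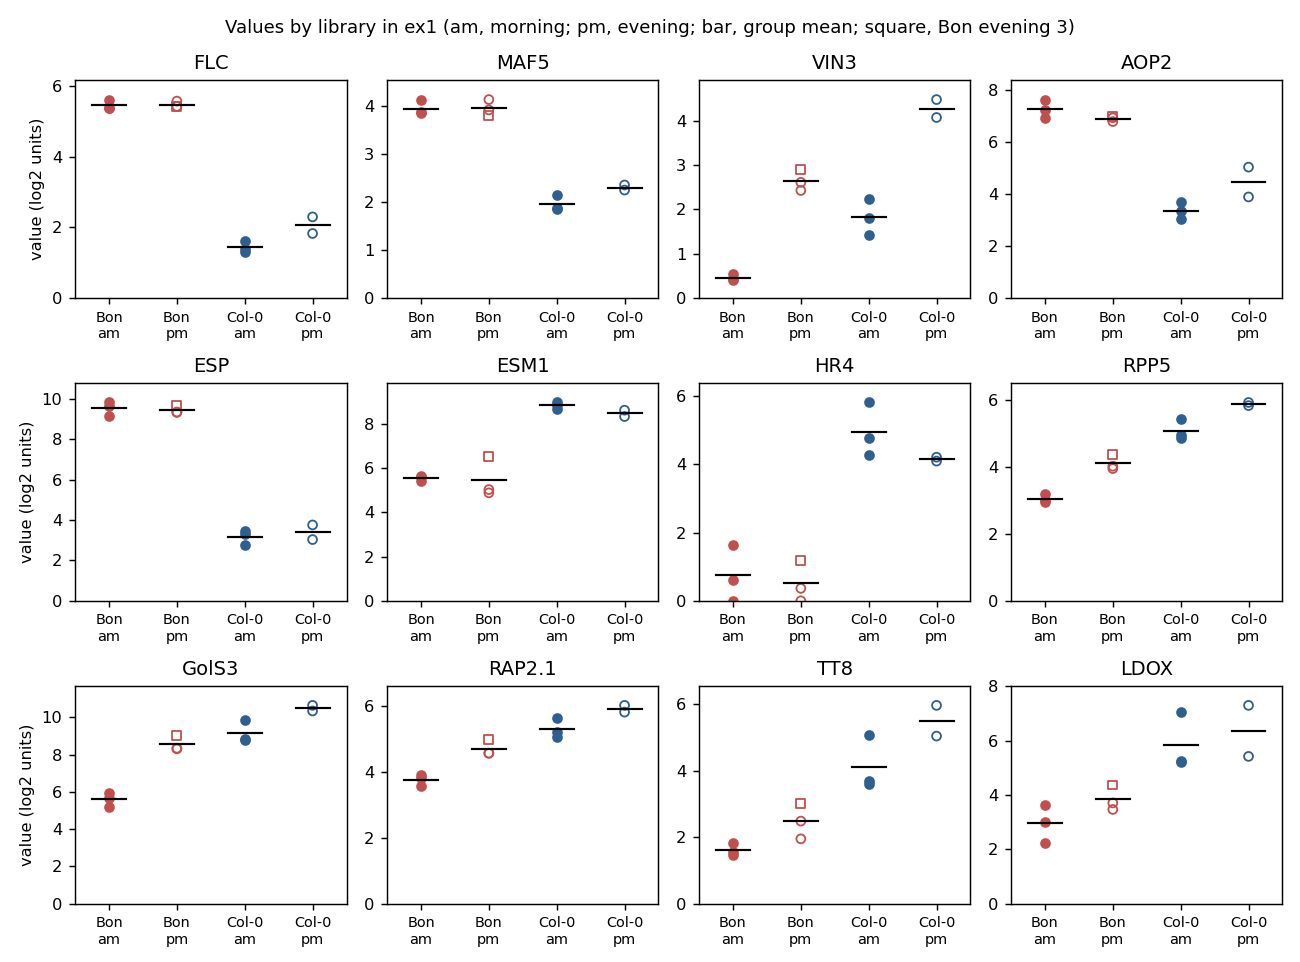
Deposited log2 values of 12 genes in each of the 11 libraries, Bon in red and Col-0 in blue, with filled symbols for morning and open symbols for evening, bars at the group means and a square for Bon evening 3. FLC, MAF5, AOP2 and ESP are higher in Bon, and the other 8 genes are lower in Bon within each time of day.

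Drought and abscisic acid genes were lower in 10 of 17 cases, higher in 1 and not called in 6, with a median of -0.62, again against 20.6% lower among all genes. RD26, a NAC transcription factor, differed by -1.16, PP2CA, a phosphatase that dampens abscisic acid signalling, by -1.03 and LEA14 by -0.97. P5CS1, which makes proline, was the 1 higher gene (0.85, adjusted p = 0.0178), with Bon at 6.59 to 7.70 and Col-0 at 4.78 to 6.88, and no member of the list was higher without Col-0 morning 3, the library at 4.78. Without that library 7 drought genes were lower, and without Bon evening 3, 8.

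Clock genes were counted in a morning and a later group. Of 10 morning clock genes 4 were lower and 0 higher (median -0.25), and of 12 day and evening genes 7 were lower and 2 higher (median -0.32), where 20.6% of all genes were lower. Without Col-0 morning 3, 5 of the 12 were lower. PRR5, a repressor that peaks in the afternoon, read 3.38, 3.11 and 3.09 in the Bon mornings and 4.33, 4.61 and 5.35 in the Col-0 mornings, but 6.40, 6.63 and 6.68 against 6.89 and 6.79 in the evenings. The gap was wide in the morning and narrow in the evening, at -1.57 and -0.27, and the change between times was itself called (1.30, adjusted p = 0.0063, but 0.237 in the 11 libraries alone). FKF1 and ELF4, which also rise during the day, had lower Bon mornings, at 1.05 to 1.49 against 2.41 to 3.78 and at 0.96 to 1.37 against 1.75 to 2.96. CCA1 and LHY, the core morning factors, were not called (-0.30 and 0.05).

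Of 20 photosynthesis genes, 7 were higher in Bon and 1 was lower, with a median of 0.22, where 21.6% of all genes were higher and 20.6% lower. RBCS1B, a small subunit of Rubisco, was at 11.44 to 11.79 in Bon and 8.92 to 10.81 in Col-0 (difference 1.81, adjusted p = 4.5e-08). PSAF, a subunit of photosystem I, was at 11.17 to 11.79 against 10.07 to 10.50 (difference 1.29), and LHCB2.2, a light-harvesting protein, at 10.02 to 10.50 against 8.64 to 9.44 (difference 1.17). The Rubisco and light-harvesting genes are families of near-identical copies, so the split of reads among copies is uncertain, and their relatives RBCS3B (-0.49) and LHCB2.1 (-0.25) were not called. Their upper values are also fixed to shared ranks by the normalisation.

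The remaining lists were small. Starch degradation had 4 of 12 genes lower, among them the debranching enzyme ISA3 (-0.95), the cytosolic phosphorylase PHS2 (-0.89) and the beta-amylase CT-BMY (-0.84), and 1 higher, the plastid phosphorylase PHS1 (0.62). Iron status had 4 of 14 higher and 0 lower (median 0.48), led by NAS4, which makes the metal chelator nicotianamine (1.27), bHLH39 (1.04) and the phloem iron transporter OPT3 (0.54). For bHLH39, a regulator of iron uptake, the value of 2.85 in Bon evening 3 was the highest of all, and without it the difference was 0.61 with adjusted p = 0.0767. Gibberellin genes had 3 of 11 higher, the DELLA repressors RGL2 (1.03) and RGL1 and the inactivating oxidase GA2OX2 (0.99), and 1 lower, RGL3 (-0.70). Senescence had 4 of 10 lower, led by the NAC factor NAP (-1.22), with 3 lower without Bon evening 3 and 2 without Col-0 morning 3. Trichome genes had 1 of 8 higher (TRY, 0.95), or 2 without Bon evening 3, and 1 lower (TTG2, -1.56). Shade response counted 1 higher (PIF4, 0.55) and 3 lower of 10, but 1 lower without Col-0 morning 3, where PIF3 and PIL6 had adjusted p = 0.0697 and 0.142. Heat response counted 1 higher of 8, or 2 without Bon evening 3, and terpene synthesis 1 lower of 5. Ultraviolet response counted 1 in each direction of 9, and the higher gene, VTC2 of ascorbate synthesis, was not called without Bon evening 3 (0.34 with it and 0.31 without, adjusted p = 0.0421 and 0.0875). Flower organ genes had 1 of 7 higher, SEP1, at 0.29 to 0.87 in Bon and 0 to 0.02 in Col-0, and root markers 1 of 4, SCR (0.31, adjusted p = 0.0126, and 0.0773 without Col-0 morning 3). All members and their spread by list are shown in the strip plot.

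**Figure D4:**
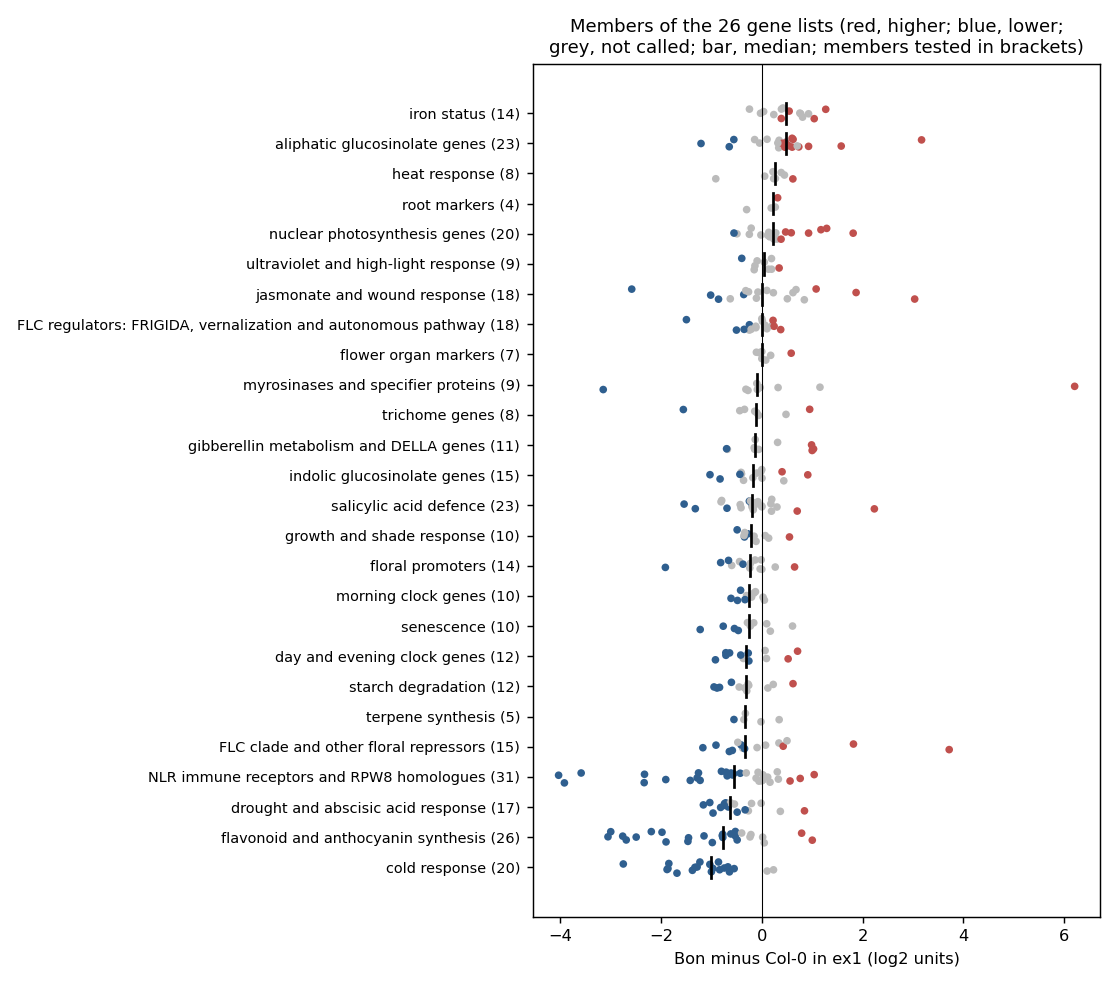
Each point is 1 tested gene of the 26 lists, placed by its Bon minus Col-0 difference on the log2 scale, with lists ordered by their median (black bar); coloured points were called. Cold response, flavonoid and drought genes lie mostly left of 0, and aliphatic glucosinolate and iron genes mostly right of it.

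The 2 times of day gave 5616 called genes in the morning (26.9%) and 6560 in the evening (31.4%), and 3208 of the 8805 genes were called at both times. A direct test of the change between times called 483 genes (2.31%). Evening minus morning was positive in 220 (1.05%) and negative in 263 (1.26%), which counts sign and not size. In 288 of the 483 the morning and evening differences had opposite signs. The count was 377 without Bon evening 3, 2061 without Col-0 morning 3, 206 without Bon morning 1, 319 without Bon evening 2, 285 and 268 without Col-0 morning 1 and 2, 209 without Col-0 evening 1 and 12 in a fit to the 11 libraries alone. Of the 483 genes, 464 were also called without Col-0 morning 3.

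AT1G72920, which encodes a TIR domain protein of the kind found in immune receptors, had the widest change of the 4 genes named for this test. Bon was steady at 1.34, 1.66 and 1.84 in the mornings and 1.74, 1.97 and 1.87 in the evenings, whereas Col-0 read 4.54, 3.77 and 4.34 in the mornings and 0.85 and 1.22 in the evenings. Col-0 was therefore the higher accession in the morning and the lower one in the evening, and the change was 3.43 (adjusted p = 1.5e-09, and 0.0103 in the 11 libraries alone). AT1G42690 and AT5G34838, both annotated as pseudogenes, were listed at 0 in all Col-0 libraries. They stood at 4.26 to 4.95 in the Bon mornings and 2.83 to 3.60 in the Bon evenings. AT3G60930, also annotated as a pseudogene, was listed at 0 in 5 Bon libraries and at 0.68 in Bon evening 3. Col-0 went from 3.03 to 3.44 in the morning to 1.54 and 1.70 in the evening. With these 3, the change in time is that of the only accession with signal, and their adjusted p was 0.0518 to 0.0773 in the 11 libraries alone.

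Against the later rounds, the Bon difference in ex1 was tested against the mean of ex2 and ex3, which have 12 libraries of each accession. It differed in 10040 genes (48.1%). Ex1 minus later was positive in 5645 (27.0%) and negative in 4395 (21.0%). These are counts of sign and do not show in which round the difference was larger in size. In ex2 and ex3 themselves Bon against Col-0 called 13929 genes (66.7%), with Bon higher in 6490 (31.1%) and lower in 7439 (35.6%). The sign was the same in ex1 and later for 6223 of the 8805 genes called in ex1 and opposite for 2543. Of the 8805, 4961 differed between rounds, 3959 of them further from Col-0 in the ex1 direction in ex1 than later and 1002 less far. These genes were chosen by their ex1 difference, which favours the larger difference in ex1, so the 2 counts do not show which round differs more. With at least a 2-fold difference, 2684 genes were called in ex2 and ex3 against 1400 in ex1, where libraries were fewer. ESM1 went from -3.15 in ex1 to -7.01 later, a change of 3.86. FLC differed by 3.72 in ex1 and 3.07 later, and ESP (6.21 and 6.71), AOP2 (3.17 and 3.24) and TT8 (-2.76 and -2.75) did not show a called change. WAK4, a wall-associated kinase, was not called in ex1 (-0.06) and was 2.32 higher in Bon later. AT3G46487, annotated as a pseudogene, differed by 0.69 in ex1 and 3.11 later, a change of -2.42.

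The lists differed in how their medians compared between rounds. The cold response median was -1.02 in ex1 and -1.19 later, and that of flavonoid genes -0.78 and -1.35. The salicylic acid genes changed together: their median was -0.19 in ex1 and 1.86 later, and all 23 differed between rounds by the test, CBP60G from -1.32 to 1.84 and PAD4 from -0.69 to 1.35. For immune receptors the median went from -0.56 to 0.20, and 22 of 31 differed. RPP1 (-2.33 and -2.02) and LAZ5 (-3.59 and -3.76) were low in Bon in both. Stage, date and extraction cannot be told apart between rounds.

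**Figure D5:**
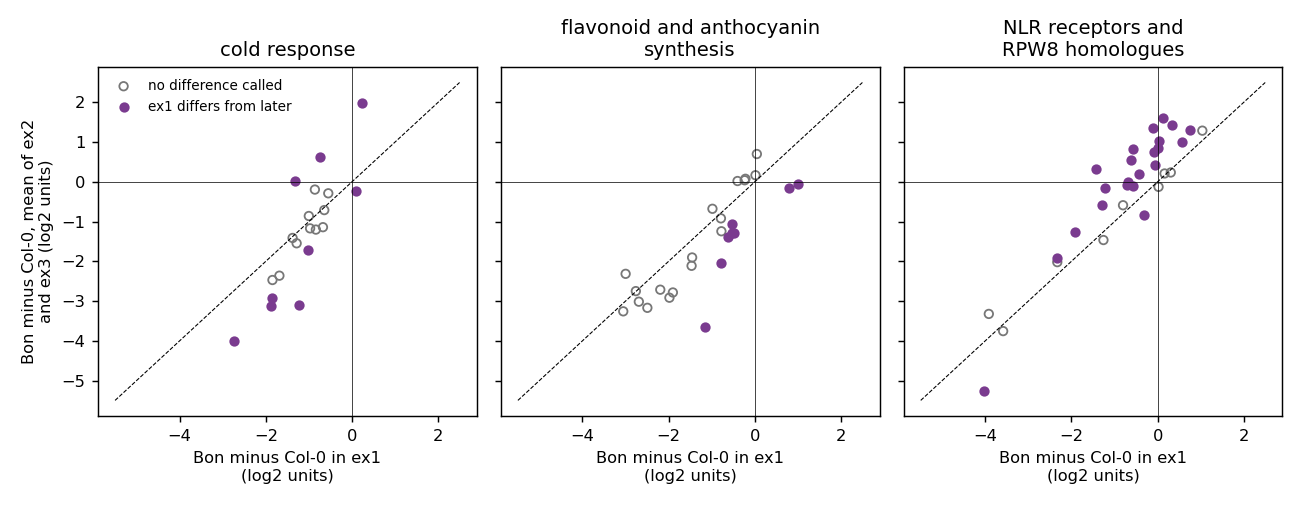
Bon minus Col-0 difference in ex1 (x axis) against the mean of ex2 and ex3 (y axis), both on the log2 scale, for the members of 3 lists; purple marks genes whose difference in ex1 was called different from the later one, and the diagonal marks equal differences. Flavonoid and cold genes lie in the lower left, and many immune receptors lie above the diagonal.

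Moj and Vel of the same round were set beside Bon in the same way. Moj against Col-0 called 8824 genes (42.3%) and Vel against Col-0 8205 (39.3%), and these comparisons use the same Col-0 libraries as Bon. For FLC the differences were 3.72 in Bon, 3.63 in Moj and 3.50 in Vel, for ESP 6.21, 6.93 and 4.46, and for AOP2 3.17, 3.56 and 2.96. MAF5 was higher in Bon and Moj (1.82 and 1.73) and lower in Vel (-1.79), and ESM1 was lower in Bon and Moj (-3.15 and -5.77) and at 0.80 in Vel. GolS3 differed by -2.75, -1.90 and -1.25 in the same order, and VIN3 by -1.50, -1.24 and -1.37. LDOX differed by -2.69, -2.66 and -3.04 and TT8 by -2.76, -2.65 and -1.98. Of the 26 flavonoid genes, 2 were called higher and 4 lower in Bon than in Moj, and 2 higher and 2 lower than in Vel.

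Direct comparisons called 4899 genes between Bon and Moj (23.5%) and 6474 between Bon and Vel (31.0%). Bon differed from Col-0, Moj and Vel with 1 sign in 1454 genes (6.96%), 758 higher and 696 lower, or 864 and 781 without Bon evening 3. QQS, a gene known only from this species and named for its effect on leaf starch, was at 6.87, 6.15 and 6.13 in the Bon mornings and 6.79, 6.38 and 6.25 in the Bon evenings, against 1.39 to 2.45 in Col-0 and 0 in every Moj and Vel library. Bon stood above all others, by 4.49 over Col-0 (adjusted p = 1.23e-20). ACR11, a protein with ACT domains, was at 5.28, 4.78 and 4.71 and 4.34, 4.28 and 5.61 in Bon and at 7.73 to 8.03 in Col-0, by a difference of -3.01 (SE 0.150, adjusted p = 5.02e-25), while Moj and Vel differed from Col-0 by 0.01 and -0.01. AT3G43340, annotated as a pseudouridine synthase, was at 3.79 to 4.58 in Bon and listed at 0 in Col-0. AT4G20480 (-4.45), AT5G49640 (-4.88) and the noncoding AT2G14878 (-3.34) were low in Bon alone, and each had its highest Bon value in Bon evening 3. Without that library they differed from Col-0 by -4.83, -5.33 and -3.525.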

How the data were processed

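RNA of whole rosettes was read by poly(A) library sequencing with a kit that does not mark strand, per the labels, so antisense genes cannot be separated. The authors deposited 1 table of 33602 genes in 80 libraries, made with FastQC, HISAT2 and StringTie on TAIR10 per the submitters' processing notes. The deposited values are log2 values, taken after 1 was added, and libraries share values at high ranks, as quantile normalisation gives. Both were read from the values. The sharing does not reach the low end, where the number of genes above 0 differs between libraries. No counts were given, so depth is unknown and no interval from depth can be given. Quantile normalisation makes distributions alike, so an overall shift in expression between libraries cannot be seen.

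The genes at 1 or more in at least 3 libraries, 20880 in number, were fitted in limma 3.58.1 (R 4.3.3) with 1 mean for each of 28 groups, a variance trend and 52 residual degrees of freedom, and p-values were adjusted by the Benjamini-Hochberg method. The fit was tested on simulated data. The library labelled Moj ex3 morning 1 goes against its label and enters only the pooled spread. Named genes are the 10 largest differences each way with adjusted p under 0.05, a back-transformed mean of at least 5 and no overlap within either time of day; up to 3 genes per list by smallest adjusted p; genes known for variation between accessions; and genes named as examples of their role in a list. The comparison and the lists were chosen with earlier results of these data known. Gene types, names and promoters came from RefSeq TAIR10.1, in which 32835 of the identifiers were found. Alternatives covered the filter, the log offset, the libraries fitted, the variance model, centring, a replicate block and leaving out each library; fits without Bon evening 3 and without Col-0 morning 3 were singled out after seeing the data.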

Additional observations from a re-analysis of the deposited data

Results flagged for a closer look

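Results stand here because a test of the difference itself found the Bon difference from Col-0 to change, either between morning and evening of ex1 or between ex1 and the mean of ex2 and ex3. Of all genes tested, 483 changed with time of day and 10040 between rounds, and the median change between rounds over all genes was 0.06. Explanations were not tested.

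Between morning and evening, the evening minus morning change was 3.43 for AT1G72920, 1.81 for AT3G60930 and 1.30 for PRR5. It was -1.24 for AT2G15555, -1.45 for AT1G42690 and -1.55 for AT5G34838, which were higher in Bon at both times. In the 11 libraries alone the adjusted p was 0.237 for PRR5 and 0.335 for AT2G15555. The Col-0 values of AT2G15555 were 0 to 0.35 in the mornings, 1.26 in Col-0 evening 1 and 0 in Col-0 evening 3. Col-0 evening 1 is the library with low signal for genes that are off in Col-0.

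In flowering, the change of ex1 minus later was 0.65 for FLC, 0.27 for VEL1, a relative of VIN3, -0.65 for AGL19, -1.10 for MAF1, -0.30 for FT and -1.08 for SOC1. In glucosinolate metabolism it was 3.86 for ESM1, 1.05 for AT2G25450, 0.79 for MAM3, -0.82 for FMO GS-OX4 and -0.91 for CYP91A2, a cytochrome P450.

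In defence, the negative changes were -3.16 for CBP60G, -2.37 for WAK4, -2.04 for PAD4, -1.73 for ACD6, -1.49 for AT5G52810, a reductase-like protein on the salicylic acid list, -1.14 for LOX3 and -0.43 for RPS6. The positive ones were 2.33 for VSP1, 1.22 for AT1G58602 and 1.15 for AOS. The wall-associated kinase WAK4, which was named by the test between rounds, changed by -2.37.

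In cold and drought response, GolS3 changed by 1.26 and COR413IM1 by 1.24, with the Bon difference further below 0 in the later rounds. RD26 changed by -1.73, LEA14 by -0.84 and PP2CA by -0.61.

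In the clock and growth lists, RVE1 changed by -0.90, PRR5 by -0.77, BOA by -1.08, PIF3 by -0.45, PIF4 by 1.15 and RGL1 by 1.17. The photosynthesis genes LHCB2.2, RBCS1B and PSAF changed by 1.46, 0.80 and 0.44. PHS1 changed by 1.02, bHLH39 by 0.89, UVR8, the ultraviolet B receptor, by 0.24 and the root marker SCR by 0.31. Without Bon evening 3 the change was 0.46 for bHLH39 and 0.30 for SCR, and neither was called (adjusted p = 0.258 and 0.0583). The senescence factors NAP and NAC6 changed by -1.91 and -1.14, the trichome regulator TRY by 1.09 and the terpene synthase TPS12 by 0.43.

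The genes of this paragraph were named for the size of their difference, except AT5G34838, AT1G42690 and AT3G46487, which were named by the tests of change. AT5G34838, AT1G42690, AT1G24996, AT1G25175 and AT1G25098 changed by 2.22, 2.15, 2.11, 1.97 and 1.89. AT5G41660, AT5G49640, AT5G49440 and AT5G15360 changed by 0.99, 0.76, 0.70 and 0.54, and AT2G05642 and AT2G15555 by -0.39 and -0.43. ZW9 changed by -1.49 and AT3G46487 by -2.42. Without Bon evening 3, AT5G49640, AT5G49440 and AT2G05642 changed by 0.30, 0.18 and -0.33 and were not called (adjusted p = 0.212, 0.217 and 0.0812).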

How the results depend on the processing

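For Bon against Col-0, the count of 8805 called genes ranged from 6929 to 8964 when 1 library was left out, and was 6599 in the 11 libraries alone, 8474 in the 22 libraries of ex1, 9522 with no filter, 8025 with a stricter filter and 9162 without the library labelled Moj ex3 morning 1. No gene called both in the reported fit and under any of these alternatives changed sign. The evening count of 6560 was 3668 in the 11 libraries alone and 4113 to 6333 when 1 library was left out, with 4113 without Col-0 evening 3. The count for the change between times, 483, depended most on the setting: 730 with no filter, 12 in the 11 libraries alone, 225 in the 22 libraries, and 206 to 2061 when 1 library was left out. The cause was not tested. At an unadjusted p under 0.05 it was 3619. The fits to 11 and 22 libraries hold no later round, and the 11 hold no Moj or Vel, so those comparisons have no value there.

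Deviations from the group means of Bon and Col-0 libraries with the same replicate number correlated at -0.04, 0.348 and 0.171 in the morning and 0.234 and 0.312 in the evening. For libraries with different numbers the correlations were -0.322 to 0.176. Whether the numbers pair the libraries was not tested, and the reported fit did not pair them. With the replicate block the counts were 8267 for Bon against Col-0 and 316 for the change between times.

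Over the named genes, 1963 values kept their direction and side of the threshold, 53 lost the call and 5 gained it. FT, which was not called, ranged from -0.0502 to 0 when 1 library was left out, with 0 without Col-0 morning 3, the one library with signal. Col-0 has 2 evening libraries, and with 1 of them left out the other is assumed to vary like the other groups.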

Other observations

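By gene type, 38 of 147 genes annotated as lncRNA and tested were lower in Bon and 12 were higher, 118 of 465 pseudogenes were lower and 147 higher, and 4069 of 19898 protein-coding genes were lower and 4302 higher. At a difference of at least 2-fold, 14 lncRNA genes were lower and 1 was higher, against 59 and 76 pseudogenes and 693 and 512 protein-coding genes. Differences between types were not tested.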
